A study of Mus musculus with 16 samples.

Results

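The variable part of a mouse antibody light chain is encoded by a V segment that a developing B cell joins to a J segment at the kappa (Igk) or the lambda (Igl) locus. The transcripts of 83 such V segments were described in mouse bone marrow: 80 kappa segments on chromosome 6 and 3 lambda segments on chromosome 16, of 57132 genes in the count table. Members were the genes whose symbol begins with Igkv or Iglv, without pseudogene biotypes, that had at least 160 reads summed over the 16 libraries. Of 103 segments that were not pseudogenes, 20 lay under that minimum, and 60 pseudogene segments were left out. Just inside the minimum were Igkv11-125 with 161 reads, Igkv8-18 with 183 and Igkv3-9 with 204, and just outside it were Igkv4-69 with 151, Igkv4-92 with 139 and Igkv8-34 with 138. All 83 members passed the filter on low counts and were tested.

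The series compared wild-type C57BL/6 mice (WT, spelled CB57BL/6 in the genotype labels) with Nrf2-/- mice (KO) of the same named strain, each after PBS, BMX-001, 5-FU or BMX-001+5-FU, with 2 libraries in each of the 8 groups. BMX-001, which the series' title calls a radioprotector, was dosed at 0.5 mg/kg from 24 h ahead of the first 5-FU dose and then at intervals of 3 days. 5-FU (5-fluorouracil, an antimetabolite that stops dividing cells) was dosed at 20 mg/kg with a repeat on day 7; marrow was collected on day 10 for RNA. WT mice were males of 8 to 10 weeks; the KO mice were bred from Nrf2+/- mice of both sexes, and no source used here gives their age. The labels do not say whether the 2 libraries of a group came from different animals, so every p-value measures the spread between these libraries, which may be technical. Libraries held 27305707 to 39909188 reads in genes. Nfe2l2, the gene of Nrf2, was at 102 to 122 CPM (counts per 1000000 library reads, with library sizes scaled by TMM) in the 8 WT libraries and at 6.48 to 16.7 CPM in the 8 KO libraries, and the Y-linked Ddx3y was at 39.7 CPM or more in every library. Over all genes, KO BMX-001 replicate 1 stood apart from the other 15 libraries. The calls and the members' medians in comparisons that use the KO BMX-001 group are therefore also given without it. So are the library orders, except the counts for all 8 KO libraries and those for opposite directions in WT and KO.

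A B cell rearranges its light chain loci after its heavy chain, and it usually keeps 1 productive light chain. Many unrelated clones use the same V segment, so a V segment alone does not identify a clone. Kappa chains predominate in mice, and few lambda segments exist in laboratory strains. Plasma cells, which secrete antibody, carry far more light chain messenger RNA per cell than resting B cells, and bone marrow holds both along with the precursors in which the joining takes place. In these bulk samples, fewer cells of a type and less RNA per cell cannot be told apart.

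The lambda segments Iglv1 and Iglv2 carry the comparisons on lambda usage, and their coding sequences are close enough that reads could be shared between them. The last 300 bases of each coding part are given here from GENCODE M21 transcripts (build GRCm38), 5′ to 3′ in the sense of the gene, with the 8 bases at which they differ in capitals.
Iglv1: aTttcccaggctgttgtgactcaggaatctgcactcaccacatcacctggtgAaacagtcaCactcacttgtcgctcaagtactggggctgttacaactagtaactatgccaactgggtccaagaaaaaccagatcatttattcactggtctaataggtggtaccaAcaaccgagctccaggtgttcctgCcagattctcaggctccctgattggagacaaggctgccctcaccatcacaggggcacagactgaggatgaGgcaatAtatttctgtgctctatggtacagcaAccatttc
Iglv2: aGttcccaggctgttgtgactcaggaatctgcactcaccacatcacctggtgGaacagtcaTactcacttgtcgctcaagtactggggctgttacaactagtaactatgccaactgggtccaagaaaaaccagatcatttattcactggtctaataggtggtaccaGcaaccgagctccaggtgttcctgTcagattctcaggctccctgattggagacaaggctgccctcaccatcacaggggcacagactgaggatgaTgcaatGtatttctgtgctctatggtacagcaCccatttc
Over the whole 351 bases they differed at 11 and were 96.87% identical, and 1.98% of the 100-base windows of Iglv1 also occurred in Iglv2. Iglv3 was 55.35% identical to Iglv1. Among all members, 40 had a segment of the same family at 95% identity or more and 38 shared at least 1 window of 100 bases with another segment. No source used here says how the authors' counting treated reads that fit several segments, so the split of counts between such segments is uncertain.

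The 3′ end of a V segment encodes the start of the complementarity-determining region that spans the joint, the loop where segments differ most and where the J segment is joined. The last 60 bases are shown for the 3 lambda segments, for the 5 kappa segments that were the largest of a library, and for the 4 kappa segments with the highest single-library excursions. Capitals begin at the last in-frame cysteine codon.
Iglv1: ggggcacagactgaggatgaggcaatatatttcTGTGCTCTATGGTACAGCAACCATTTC
Iglv2: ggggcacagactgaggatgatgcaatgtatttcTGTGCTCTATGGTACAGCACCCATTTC
Iglv3: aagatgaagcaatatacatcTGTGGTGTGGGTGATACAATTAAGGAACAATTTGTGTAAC
Igkv10-96: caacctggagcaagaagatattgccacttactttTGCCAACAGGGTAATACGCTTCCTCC
Igkv19-93: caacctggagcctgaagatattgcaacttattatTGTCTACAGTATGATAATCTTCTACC
Igkv6-23: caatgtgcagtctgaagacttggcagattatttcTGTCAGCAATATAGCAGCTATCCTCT
Igkv5-39: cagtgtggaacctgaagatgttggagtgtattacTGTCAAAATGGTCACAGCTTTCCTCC
Igkv6-17: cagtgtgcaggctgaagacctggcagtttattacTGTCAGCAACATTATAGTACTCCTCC
Igkv1-99: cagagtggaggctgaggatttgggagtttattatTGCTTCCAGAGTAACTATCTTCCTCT
Igkv12-41: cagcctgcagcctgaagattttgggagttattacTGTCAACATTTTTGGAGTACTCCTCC
Igkv3-1: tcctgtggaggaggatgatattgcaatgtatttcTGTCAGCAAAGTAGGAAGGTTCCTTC
Igkv14-130: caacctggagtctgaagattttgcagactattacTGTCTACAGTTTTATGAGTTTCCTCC

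Usage was expressed as the share of the light chain V pool: each member's reads divided by its exonic length, over the same sum for all 83 members in that library. Iglv1, the segment of the lambda 1 chain, was the largest segment in 9 of 16 libraries and among the 3 largest in 14 of 16. Its share was 4.61% and 8.64% in WT PBS, 12.4% and 6.87% in WT BMX-001, 9.02% and 12.1% in WT 5-FU, and 12.2% and 9.13% in WT BMX-001+5-FU. In KO it was 20.2% and 10.5% in PBS, 14.1% and 6.91% in BMX-001, 4.73% and 14.3% in 5-FU, and 5.11% and 6.95% in BMX-001+5-FU. By share alone, WT and KO libraries overlapped across this range, and the 2 libraries of KO 5-FU lay near opposite ends of it.

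In the other 7 libraries the largest segment was a kappa segment, and 5 different ones took that place. Igkv6-17 led WT PBS replicate 1 at 9.79%, where its 3185 reads were 9.94% of member reads (95% exact binomial interval 9.61 to 10.3%). Igkv19-93 led WT PBS replicate 2 at 16.2%, the largest share of any kappa segment. Igkv6-23 led WT BMX-001 replicate 2 at 7.16%, just ahead of Iglv1, and by reads alone Iglv1 was ahead there. Igkv5-39 led KO PBS replicate 2 at 12.0%. Igkv10-96 led 3 KO libraries, at 14.3% in 5-FU replicate 1, and 8.97% and 14.0% in the 2 BMX-001+5-FU libraries. Only in WT 5-FU, WT BMX-001+5-FU, KO BMX-001 and KO BMX-001+5-FU did both libraries of a group share the same largest segment. These intervals cover counting error only.

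**Figure D1:**
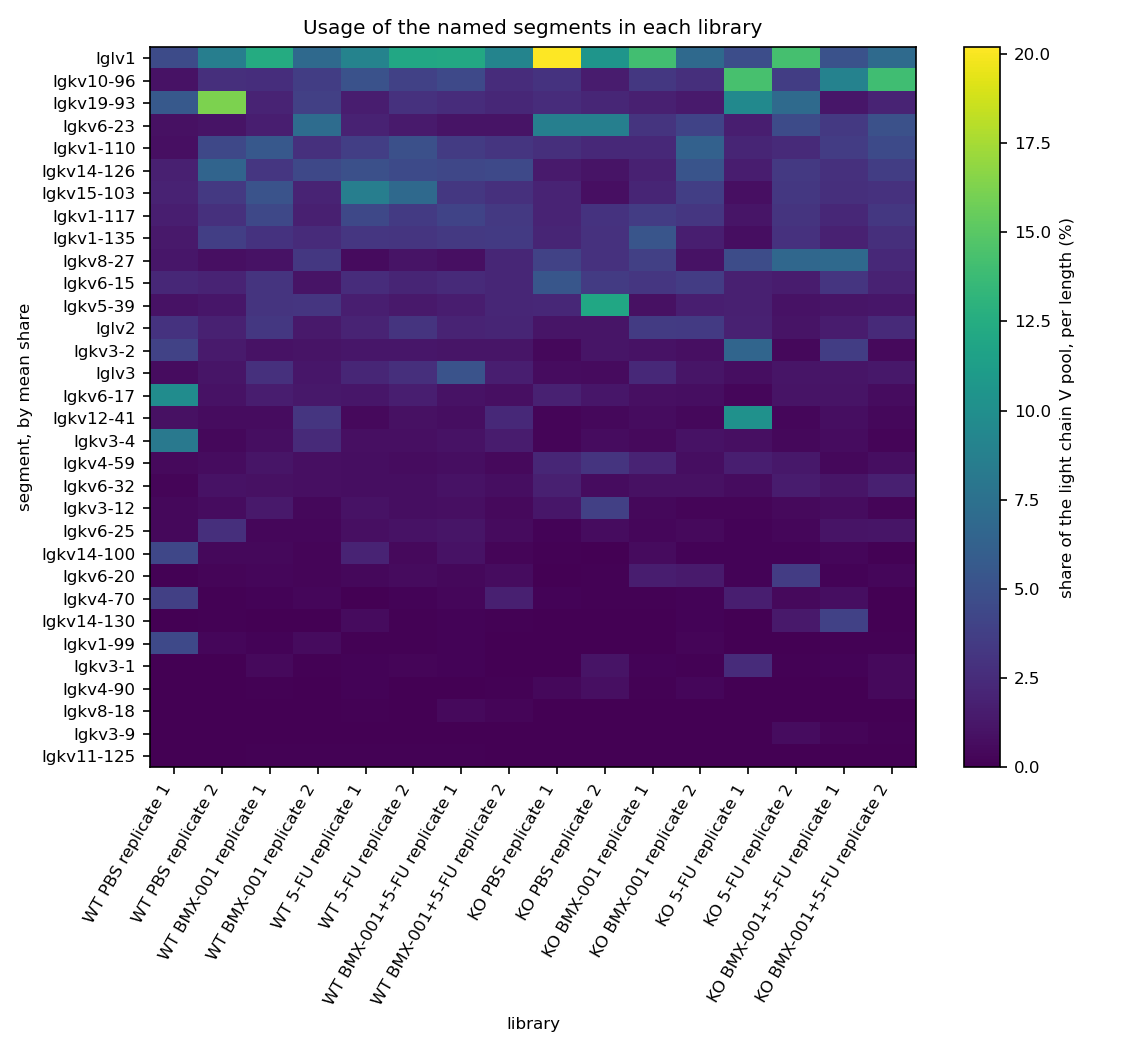
Share of the light chain V pool, corrected for exonic length (colour, percent), for each named segment (vertical axis) in each of the 16 libraries (horizontal axis). Iglv1 forms an almost unbroken bright row, while Igkv19-93, Igkv10-96, Igkv5-39 and Igkv6-17 are bright in 1 to 3 libraries each.

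Beneath those leaders the pool was broad. The 10 members with the highest mean share held 40.8% of the pool together, 32 members averaged at least 1%, and 28 averaged under 0.5%. Of the 83, 20 exceeded 5% in at least 1 library, 21 never exceeded 1%, and 12 had a highest share at least 10 times their median share. The effective number of segments, which is the number of equally used segments that would give the same concentration (the inverse Simpson index), ran from 15.4 in KO PBS replicate 1 to 35.0 in WT BMX-001+5-FU replicate 2. It was 20.9 ± 1.60 in WT PBS and 18.5 ± 4.44 in KO PBS (SD, n = 2 each), and 29.2 ± 1.68 in WT 5-FU (SD, n = 2). The 6 WT libraries that had received BMX-001, 5-FU or both were at 27.7 to 35.0, above all 4 PBS libraries. The 6 such KO libraries were at 17.8 to 32.1, and KO 5-FU replicate 1, the lowest of them, lay below 3 of the 4 PBS libraries.

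Other kappa segments with high medians led no library. Igkv1-117 ranged from 1.16% to 4.41% with a median of 3.11%, and Igkv1-110 ranged from 0.79% to 6.28% with a median of 3.31%. Igkv14-126 had a median of 3.49% and reached 6.52% in WT PBS replicate 2. Igkv1-135, at the far end of the locus, ranged from 0.72% to 5.35% around a median of 2.87%. The lowest share of Igkv1-117 and Igkv1-135 was that in KO 5-FU replicate 1, and the lowest of Igkv1-110 that in WT PBS replicate 1, the 2 libraries in which the pool was largest relative to the other library of the group.

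The kappa symbols number the segments by position, with the lowest numbers nearest to the J segments. With 30 members numbered 1 to 45, 24 numbered 46 to 91 and 26 numbered 92 to 137, the near stretch held 25.8% of kappa usage in WT PBS replicate 2 and 51.4% in KO PBS replicate 2, the lowest and highest of the 16 libraries. The far stretch ran the other way, from 58.2% in WT PBS replicate 2 to 29.6% in KO PBS replicate 2, and the middle stretch took 15.1% to 27.3%. The near stretch was 49.1% and 51.4% in KO PBS against 45.7% and 25.8% in WT PBS, without overlap, and 45.4% and 38.5% in KO 5-FU against 27.6% and 29.3% in WT 5-FU. In KO BMX-001 it was 35.4% and 38.3%, overlapping WT BMX-001 at 32.5% and 37.8%, and in KO BMX-001+5-FU it was 37.6% and 34.3%, overlapping WT BMX-001+5-FU at 33.4% and 35.5%. Of the members, 47 lie in the minus and 33 in the plus orientation, and minus segments held 46.5% to 71.5% of kappa usage, highest in KO 5-FU replicate 1.

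**Figure D2:**
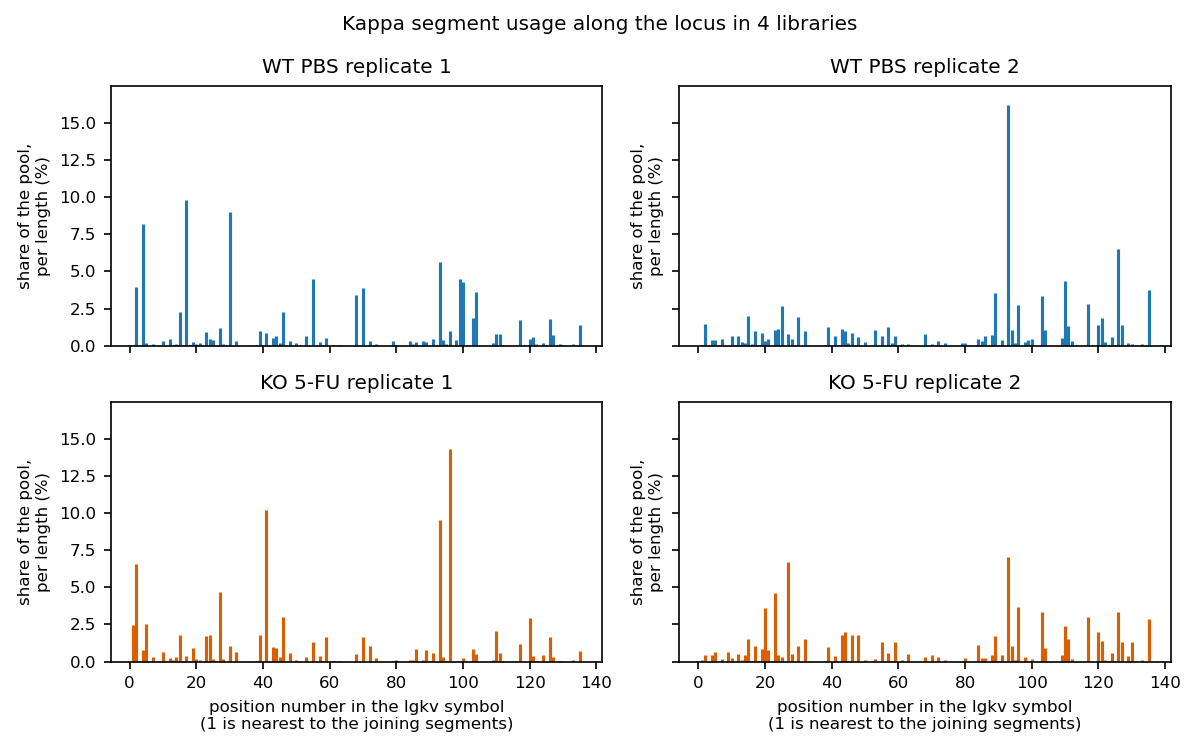
Share of the light chain V pool (vertical axis, percent, per exonic length) of each kappa member against the position number in its symbol (horizontal axis) in the 2 WT PBS libraries (blue) and the 2 KO 5-FU libraries (orange). The tall bars differ between the 2 libraries of each group: Igkv19-93 reaches 16.2% in WT PBS replicate 2 against 5.67% in replicate 1, and Igkv10-96 reaches 14.3% in KO 5-FU replicate 1 against 3.64% in replicate 2.

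By family, Igkv1 held 4.66% to 18.5% of kappa usage over the 16 libraries, Igkv6 5.79% to 24.2% and Igkv4, the family with the most members at 18, 8.05% to 19.1%. The Igkv10 family, with 3 members, ran from 1.59% in WT PBS replicate 1 to 17.6% in KO BMX-001+5-FU replicate 2. Igkv8 averaged 8.10 ± 2.27% of kappa usage over the WT libraries and 11.3 ± 2.08% over the KO libraries (SD, n = 8 each). In the same order, Igkv6 averaged 10.8 ± 2.00% and 14.4 ± 5.18%, and Igkv10 5.45 ± 2.23% and 8.41 ± 5.71%. Igkv1 went the other way, at 14.4 ± 2.61% and 11.7 ± 4.45%. So did Igkv14, at 8.04 ± 1.65% and 5.92 ± 2.31%, and Igkv15, at 5.01 ± 2.93% and 2.69 ± 1.23%. Igkv12 was at 7.06 ± 2.33% and 7.58 ± 4.17%, and the families whose means are not given here also went in both directions. Ranges overlapped in each of these families, and each mean pools the 4 treatments.

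Single libraries stood out for many members. In 49 of 83 members, 1 library or more lay at 5 times the median CPM of the other 15 or higher with at least 100 reads, against 1.05% of the 19152 genes tested. Without WT PBS replicate 1 and KO 5-FU replicate 1 it was 36 members against 0.909% of genes, and without those and KO BMX-001 replicate 1 it was 36 against 0.459%. The 76 such cases fell mostly in 3 libraries: 20 in KO 5-FU replicate 1, 14 in KO PBS replicate 2 and 12 in WT PBS replicate 1. None fell in either WT 5-FU library, in WT BMX-001 replicate 1, in WT BMX-001+5-FU replicate 1 or in KO BMX-001 replicate 1. The libraries that stood out were thus of both genotypes, and each had a partner library with 1 to 4 such cases.

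**Figure D3:**
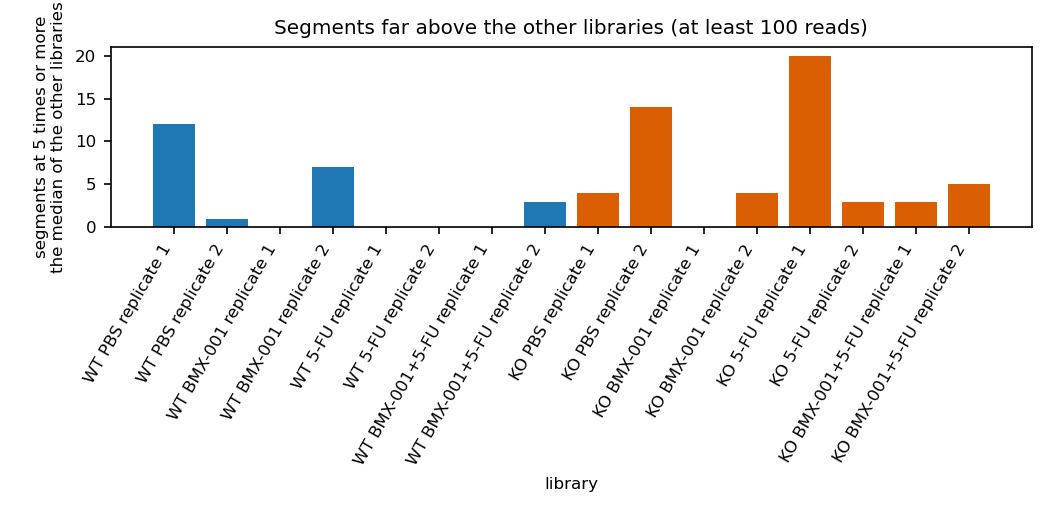
Number of members (bars, vertical axis) whose CPM in a library was at least 5 times the median of the other 15 libraries, with at least 100 reads, for each WT (blue) and KO (orange) library (horizontal axis). KO 5-FU replicate 1 has 20, KO PBS replicate 2 has 14 and WT PBS replicate 1 has 12, while 5 libraries have none.

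The highest excursion was that of Igkv1-99, with 1450 reads and 40.3 CPM in WT PBS replicate 1 against a median of 0.446 CPM and a highest value of 3.06 CPM in the other 15 libraries, a ratio of 90.3. Igkv12-41 reached 155 CPM in KO 5-FU replicate 1 against a median of 1.92 CPM (ratio 80.8), where it held 10.2% of the pool, and its next highest value was 14.9 CPM in WT BMX-001 replicate 2. Igkv3-1, the kappa segment nearest to the J segments by number, reached 38.8 CPM in the same KO library (ratio 69.9). A second excursion of Igkv3-1, at 10.3 CPM, was in KO PBS replicate 2 (ratio 18.5). Each of these segments was thus highest in 1 library and scarce in the partner of that library.

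Igkv14-130 was at 15.6 CPM in KO BMX-001+5-FU replicate 1 (526 reads, ratio 62.3) and at 0.21 CPM in replicate 2. It was also at 6.05 CPM in KO 5-FU replicate 2 (226 reads, ratio 24.2). Igkv3-9 rested on 117 reads in KO 5-FU replicate 2, where its ratio of 51.7 was set against a median of 0.06 CPM. Those 117 were part of 204 reads in all, and without them Igkv3-9 would lie under the minimum of 160. It was thus a member only through the library in which it was high, and it is counted among the 49 members with an excursion. Igkv4-70 was high in 2 libraries of different genotype, at 35.1 CPM in WT PBS replicate 1 and 27.7 CPM in KO 5-FU replicate 1, and at 5.65 CPM or less in the other 14. WT PBS replicate 1 was also the highest library for Igkv3-4 at 70.3 CPM and Igkv14-100 at 36.1 CPM. Igkv3-2 was at 109 CPM in KO 5-FU replicate 1 and 36.0 CPM in WT PBS replicate 1, and Igkv4-90 was highest in both KO PBS libraries, at 2.88 and 7.33 CPM. The highest libraries were thus drawn from both genotypes.

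The 2 libraries of a group differed 2-fold or more (on CPM plus 0.5) in 26 members in WT PBS against 1.85% of all genes tested, 25 in WT BMX-001 (0.36%), 6 in WT 5-FU (0.136%) and 14 in WT BMX-001+5-FU (0.506%). In KO the counts were 30 in PBS (1.86%), 34 in BMX-001 (11.8%), 45 in 5-FU (1.04%) and 20 in BMX-001+5-FU (0.606%). The overlap of usage, which is the summed smaller share of each member in 2 libraries, was 49.4% to 85.2% (median 69.5%) in the 8 pairs of the same group and 41.0% to 86.7% (median 65.7%) in the 112 pairs of different groups. Partners were least alike in WT PBS (49.4%) and KO 5-FU (56.2%) and most alike in WT 5-FU (85.2%), and the range within groups lay inside the range between groups.

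The level of the pool as a whole varied between partners as well. The summed CPM of the 83 members was 889.6 and 292 in WT PBS, 294 and 504 in WT BMX-001, 262 and 231 in WT 5-FU, and 265 and 307 in WT BMX-001+5-FU. In KO it was 741 and 971 in PBS, 234 and 499 in BMX-001, 1606 and 474 in 5-FU, and 419 and 513 in BMX-001+5-FU. The 2 KO groups that received 5-FU lay above the 2 WT groups that received it in every library, while the PBS and BMX-001 groups overlapped between genotypes. The mean log2 CPM of the pool was 0.77 higher in KO than in WT, and 0.56 to 0.97 higher when 1 library was left out, lowest without KO 5-FU replicate 1 and highest without WT PBS replicate 1.

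The kappa constant region Igkc moved with the kappa V segments in every library, at 1.59 to 1.96 CPM per CPM of kappa V segments. Igkc was highest in KO 5-FU replicate 1 (2482 CPM), KO PBS replicate 2 (1621 CPM) and WT PBS replicate 1 (1560.2 CPM), the 3 libraries with the most single-library excursions. The heavy chain Ighm was at 4109.9 CPM in WT PBS replicate 1 and 4664 CPM in KO 5-FU replicate 1, against 767 to 2240.5 CPM in the other 14 libraries. Jchain, which links secreted antibody units, was at 304 CPM in WT PBS replicate 1 and at 42.3 to 145 CPM in the other 7 WT libraries, and at 567 CPM in KO 5-FU replicate 1 and 140.5 to 430.3 CPM in the other 7 KO libraries. The summed level of the 15 plasma cell genes was 420.2 to 835 CPM in WT and 569 to 3072 CPM in KO. A single gene of that list, the IgA heavy chain Igha described below, made up most of the sum in both KO PBS libraries. The part of all these genes in the segment levels was not tested.

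**Figure D4:**
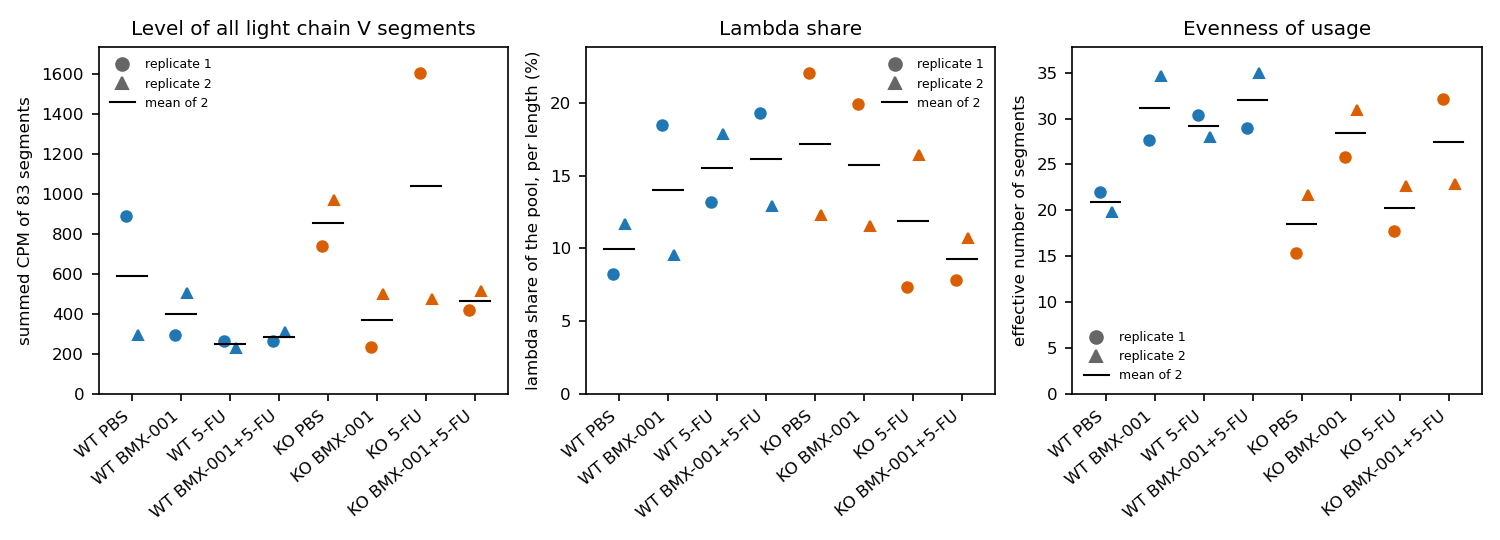
Summed CPM of the 83 members (left), lambda share of the pool in percent (middle) and effective number of segments (right), by group, with WT in blue and KO in orange; circles are replicate 1, triangles replicate 2 and lines the mean of 2. KO 5-FU replicate 1 reaches 1606 CPM and its partner 474, and the effective number is lowest, at 15.4, in KO PBS replicate 1.

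Lambda segments together held 7.36% to 22.1% of the pool. The lambda share was 8.21% and 11.7% in WT PBS, 18.5% and 9.54% in WT BMX-001, 13.2% and 17.8% in WT 5-FU, and 19.3% and 12.9% in WT BMX-001+5-FU. In KO it was 22.1% and 12.3% in PBS, 20.0% and 11.5% in BMX-001, 7.36% and 16.4% in 5-FU, and 7.85% and 10.7% in BMX-001+5-FU. KO lay above WT without overlap in PBS and below it without overlap in BMX-001+5-FU, and the genotypes overlapped in BMX-001 and in 5-FU.

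Against this spread, 5 of 83 members were called for any difference among the 8 groups (edgeR quasi-likelihood F test, Benjamini-Hochberg adjusted p under 0.05), where 0.684% of all genes tested were called. Without KO BMX-001 replicate 1, 7 members were called, against 5.76% of genes. The 5 were Iglv1 (edgeR adjusted p = 0.00801), Igkv3-12 (0.0325), Igkv6-20 (0.0432), Igkv6-32 (0.0442) and Igkv4-59 (0.0478). Of these, Iglv1 was called without each of the 16 libraries in turn. Igkv3-12 was called when KO BMX-001 replicate 2, KO PBS replicate 1 or either WT PBS library was left out and lost without the other 12. Igkv6-20 was called without KO BMX-001 replicate 2 or KO 5-FU replicate 1 and lost without the other 14. Igkv6-32 was called without KO PBS replicate 2 or either KO BMX-001 library and lost without the other 13. Igkv4-59 was called without either WT PBS library, KO BMX-001 replicate 2 or either KO 5-FU library and lost without the other 11. DESeq2 called 38 members.

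Iglv1 was highest in 2 KO groups. Its level was 43.2 and 26.7 CPM in WT PBS, 38.3 and 36.7 CPM in WT BMX-001, 24.9 and 29.3 CPM in WT 5-FU, and 33.9 and 29.5 CPM in WT BMX-001+5-FU. In KO it was 157 and 108 CPM in PBS, 34.5 and 36.1 CPM in BMX-001, 81.1 and 71.1 CPM in 5-FU, and 22.7 and 37.7 CPM in BMX-001+5-FU. The 4 libraries of KO PBS and KO 5-FU thus lay above all 12 others, and the other 4 KO libraries lay within or just below the WT range. The KO PBS mean was 132.7 ± 34.8 CPM against 34.9 ± 11.7 CPM for WT PBS, and the KO 5-FU mean was 76.1 ± 7.06 CPM against 27.1 ± 3.11 CPM for WT 5-FU (SD, n = 2 each).

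The lambda 1 constant region Iglc1 followed the same order, at 180.4 and 135 CPM in the KO PBS libraries, 103 and 90.1 CPM in KO 5-FU, and 27.3 to 59.8 CPM in the other 12 libraries. It was called for any difference among the 8 groups (edgeR adjusted p = 0.0274). Iglc2 (edgeR adjusted p = 0.568) and Iglc3 (0.60) were not. Not corrected for length, the CPM of Iglv1 was 0.72 to 1.30 times that of Iglc1 in each library, and the CPM of Iglv2 was 0.17 to 0.55 times that of Iglc2.

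**Figure D5:**
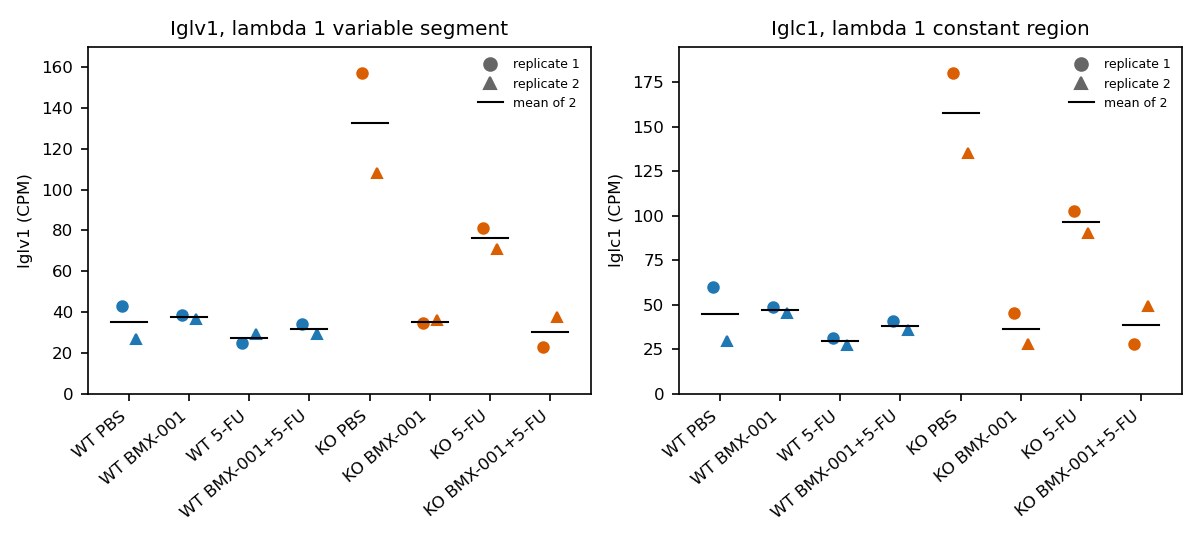
CPM of Iglv1 (left) and of the constant region Iglc1 (right) by group, with WT in blue and KO in orange; circles are replicate 1, triangles replicate 2 and lines the mean of 2. The 4 libraries of KO PBS and KO 5-FU lie above the other 12 in both panels, from 71.1 to 157 CPM for Iglv1.

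Iglv2 and Iglv3 did not follow Iglv1. Iglv2 was at 25.9 CPM in WT PBS replicate 1 and 29.8 CPM in KO 5-FU replicate 1, and at 4.85 to 16.9 CPM in the other 14 libraries, so its highest values came from 1 library of each genotype. Iglv3 was at 14.0 CPM in WT BMX-001+5-FU replicate 1, 12.9 CPM in KO 5-FU replicate 1 and 3.53 to 8.33 CPM elsewhere. Neither was called in any of the 13 comparisons.

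In KO against WT averaged over the 4 treatments, 2 of 83 members were called, both higher in KO, against 0.178% of all genes tested in either direction and 0.0627% higher. Igkv6-32 had a log2 fold change of 1.4 ± 0.21 (SE, edgeR adjusted p = 0.0191) and Iglv1 of 0.81 ± 0.13 (edgeR adjusted p = 0.0303). Igkv6-32 was at 1.77 to 3.97 CPM in the 8 WT libraries and at 2.11, 4.42, 4.86, 6.21, 7.15, 9.0, 10.6 and 13 CPM in the 8 KO libraries. Its 2 lowest KO values bracketed the highest WT value, and the lowest was in KO BMX-001 replicate 1. With all 16 libraries, no member had all 8 KO libraries above all 8 WT libraries, as 0.0731% of genes did, or all 8 below, as 0.104% did. Without KO BMX-001 replicate 1, the KO values of Igkv6-32 began at 4.42 CPM and lay above all WT values. The share of all genes and the other members with that order are not given here.

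The median log2 fold change of the members in this comparison was 0.59, against 0.00 over all genes tested, and 65 of 83 were positive. Without KO BMX-001 replicate 1 the median was 0.67 and 3 members were called, against 1.39% of genes. Igkv8-27 was at 1.52 to 16 CPM in WT and 4.59 to 74.2 CPM in KO, and Igkv6-23 at 2.90 to 36.1 CPM in WT and 7.03 to 84.4 CPM in KO, both with overlap and neither called. The Igkv6-32 call was kept without WT BMX-001 replicate 2, either KO PBS library, either KO BMX-001 library, KO 5-FU replicate 2 or KO BMX-001+5-FU replicate 1, and was lost without each of the other 9 (edgeR adjusted p up to 0.0966) and without WT PBS replicate 1 and KO 5-FU replicate 1 together (0.126). The Iglv1 call was kept without either KO PBS library, WT PBS replicate 1, KO BMX-001 replicate 2, KO 5-FU replicate 2 or KO BMX-001+5-FU replicate 1, and was lost without each of the other 10 (edgeR adjusted p up to 0.115).

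Of the plasma cell genes, Igha, the heavy chain of secreted IgA, was called in the same comparison, at 72.7 to 157 CPM in WT and 208 to 2197 CPM in KO (log2 fold change 2.83 ± 0.28 SE, edgeR adjusted p = 0.00286). It was the only called gene of 15 on that list, whose median log2 fold change was 0.49. Jchain had a log2 fold change of 1.63 ± 0.35 and was not called (edgeR adjusted p = 0.114). Igha was highest in KO PBS, at 1506 and 2197 CPM, the group in which Iglv1 was highest. The part of either gene's source cells in the Iglv1 level was not tested.

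In PBS alone, KO differed from WT in 1 member, higher in KO, against 0.0261% of all genes tested in either direction and 0.0157% higher: Iglv1, with a log2 fold change of 1.93 ± 0.26 (SE, edgeR adjusted p = 0.0297). This call was kept when KO PBS replicate 2, WT PBS replicate 1 or either KO BMX-001+5-FU library was left out and was lost without each of the other 12 (edgeR adjusted p up to 0.201), and was lost when only the 4 PBS libraries were fitted (edgeR adjusted p = 0.908). In 35 members both KO PBS libraries lay above both WT PBS libraries, as they did in 17.6% of all genes. The median log2 fold change of the members was 0.84, against -0.01 over all genes. Igkv6-23, at 64.3 and 84.4 CPM in KO PBS and 8.05 and 3.02 CPM in WT PBS, was among the uncalled.

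Igkv3-12 and Igkv4-59 were highest in KO PBS as well. Igkv3-12 was at 8.48 and 35.8 CPM there and at 0.94 to 4.21 CPM in the other 14 libraries. Igkv4-59 was at 16.2 and 29.2 CPM there, at 27 and 6.13 CPM in KO 5-FU, and at 1.5 to 4.64 CPM in the other 12. Both were called for any difference among groups but not in any comparison of 2 groups.

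No member was called for KO against WT in BMX-001, in 5-FU or in BMX-001+5-FU, where 0.0104%, 0.0157% and 0.0157% of all genes tested were. At an unadjusted p under 0.05 there were 11, 30 and 15 of 83 members, against 4627, 1302 and 969 of the 19152 genes tested. DESeq2 called 2, 11 and 0 members. The member of smallest p in BMX-001 was Igkv11-125, at 0.40 and 0.61 CPM in WT and 0.13 and 0.03 CPM in KO (edgeR adjusted p = 0.154, and 0.998 without KO BMX-001 replicate 1). With 161 reads in all, Igkv11-125 would lie under the minimum of 160 without either of these WT libraries. It was thus a member only with the reads of the group in which it was higher. In 5-FU the member of smallest p was Iglv1, with a log2 fold change of 1.49 ± 0.26 (SE, edgeR adjusted p = 0.252), called by DESeq2 and when only the 5-FU libraries were fitted. In BMX-001+5-FU it was Igkv8-18, at 1.34 and 0.84 CPM in WT and 0.15 and 0.11 CPM in KO (edgeR adjusted p = 0.560). Igkv8-18 had 183 reads in all, with 54 and 32 in the WT BMX-001+5-FU libraries. Without either of these libraries it would lie under the minimum of 160, so it was a member only through the group in which it was high. The median log2 fold change of the members was -0.20 in BMX-001, 1.32 in 5-FU and 0.52 in BMX-001+5-FU. Without KO BMX-001 replicate 1 the median in BMX-001 changed sign, to 0.04, and again no member was called (5 at an unadjusted p under 0.05, 0.0203% of genes called).

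By library order, both KO libraries lay above both WT libraries in 37 members in 5-FU (23.8% of all genes), 30 in BMX-001+5-FU (23.7%) and 7 in BMX-001 (23.6%). Both lay below in 6, 8 and 18 members (22.7%, 20.6% and 24.5% of all genes). In BMX-001 the KO side held KO BMX-001 replicate 1, whose pool of 234 CPM was below both WT libraries, and KO BMX-001 replicate 2, at 499 CPM, between them. Replicate 2 alone lay above both WT BMX-001 libraries in 32 members and below both in 23, as it did in 36.4% and 36.1% of all genes. The test of a genotype difference that varies with treatment called no member and no gene (smallest edgeR adjusted p of a member = 0.601, 5 members with DESeq2), so a difference between treatments in the genotype effect was not shown. This test gave 23 members and 1436 of 19152 genes at an unadjusted p under 0.05. Without KO BMX-001 replicate 1 it also called no member (10 at an unadjusted p under 0.05, smallest edgeR adjusted p = 0.512). By library order, both treated libraries lay beyond both of their controls in one direction in WT and in the opposite direction in KO in 3 members for 5-FU against PBS, 6 for BMX-001 against PBS and 8 for BMX-001+5-FU against 5-FU, and in 5.29%, 5.01% and 10.1% of all genes, so these counts were near the background.

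5-FU against PBS called no member in WT, where 0.00522% of all genes were called. Unadjusted p was under 0.05 in 10 members and 2766 of 19152 genes in WT, and DESeq2 called 5 members. Igkv19-93 had the smallest p there. It was at 49.3 and 46.3 CPM in WT PBS, 4.15 and 6.51 CPM in WT 5-FU, 18.4 and 20.7 CPM in KO PBS, and 152 and 32.5 CPM in KO 5-FU. Its log2 fold change in WT was -3.16 ± 0.77 (SE, edgeR adjusted p = 0.139), and the WT PBS libraries did not overlap the WT 5-FU libraries. The median of the members was -0.40 in WT and 0.14 in KO.

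In KO, 5-FU against PBS called 1 member, higher under 5-FU, against 0.454% of all genes tested in either direction and 0.0104% higher. Igkv6-20, at 0.36 and 0.94 CPM in the PBS libraries, reached 3.51 and 17.4 CPM under 5-FU (log2 fold change 4.0 ± 0.73 SE, edgeR adjusted p = 0.0413). The call was kept only without KO 5-FU replicate 1 and was lost without each of the other 15 libraries (edgeR adjusted p up to 0.298) and in a fit of the 4 libraries alone (edgeR adjusted p = 0.465). Igkv6-20 was also above the WT range of 0.83 to 2.08 CPM in both KO BMX-001 libraries, at 3.85 and 7.37 CPM. Of its 100-base windows, 50.8% also occur in Igkv6-29, a segment under the minimum that is 98.56% identical, so its counts are uncertain.

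BMX-001 against PBS called no member in WT, where no gene was called. Unadjusted p was under 0.05 in 12 members and 977 of 19152 genes, and DESeq2 called no member. The WT member of smallest p was Igkv6-25 at 3.78 and 8.07 CPM in PBS and 1.13 and 1.71 CPM in BMX-001 (edgeR adjusted p = 0.961). In KO, BMX-001 against PBS called no member, where 0.00522% of genes were called. Here 21 members and 5859 of 19152 genes had an unadjusted p under 0.05, and DESeq2 called 14 members. Iglv1 had the smallest p in KO, with a log2 fold change of -1.91 ± 0.26 (SE, edgeR adjusted p = 0.0811). It was called by DESeq2 and without either WT PBS library, KO PBS replicate 2, KO BMX-001 replicate 2 or either KO BMX-001+5-FU library (edgeR adjusted p of 0.00607 to 0.0309). Without KO BMX-001 replicate 1, which stands apart, it was not called (log2 fold change -1.88, edgeR adjusted p = 0.436), and the other KO BMX-001 library had 36.1 CPM. Both KO BMX-001 libraries lay below both KO PBS libraries in 36 members, as they did in 25.4% of genes, and the median log2 fold change of the members was -0.89. With KO BMX-001 replicate 2 as the only library of its group, 39 members lay below both KO PBS libraries, as did 37% of genes, the median was -0.60 and no member was called (15 at an unadjusted p under 0.05).

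BMX-001+5-FU against 5-FU called no member and no gene in either genotype. Unadjusted p was under 0.05 in 3 members and 753 of 19152 genes in WT, and in 17 members and 499 genes in KO. DESeq2 called no member in WT and 4 in KO. In KO, Iglv1 had a log2 fold change of -1.33 ± 0.26 (SE, edgeR adjusted p = 1.00), with 22.7 and 37.7 CPM under both agents against 81.1 and 71.1 CPM under 5-FU. In WT the smallest p was that of Igkv8-18, at 1.34 and 0.84 CPM against 0.25 and 0.17 CPM (edgeR adjusted p = 0.998). As stated above, Igkv8-18 reached the minimum of 160 reads only through the WT BMX-001+5-FU libraries, in which it was high. Members had a median log2 fold change of 0.11 in WT and -0.66 in KO.

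Other genes of the light chain pathway were read beside the segments. None of 14 genes of pre-B cells and light chain joining was called in KO against WT averaged over treatments (median log2 fold change -0.28). Rag1 and Rag2, the recombinase that cuts V and J segments, had log2 fold changes of -0.66 ± 0.19 and -0.72 ± 0.16 (SE, edgeR adjusted p = 0.189 and 0.105). None of 15 transcription factors that act on light chain genes was called (median -0.22), among them Irf4 at -0.42 ± 0.13 (edgeR adjusted p = 0.216). None of 11 B lineage genes was called (median -0.22). The medians of these 3 lists thus had the opposite sign to that of the V segments. No gene of the T cell, neutrophil or erythroid lists was called in that comparison, with medians of 0.21, 0.09 and 0.17.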

How the data were processed

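RNA-seq of mouse bone marrow was measured in 16 libraries, 2 in each of 8 groups of genotype and treatment, and the deposited table holds raw counts of reads per Ensembl gene, as whole numbers; the submitters' processing notes list featureCounts. They also list R 4.3.0, DESeq2 1.38.3, FastQC 0.12.1, Trim Galore 0.6.4 and Salmon 1.4.0 without their roles, and GRCm39 as the genome build. No source used here gives the aligner, annotation release, strand setting or treatment of multi-mapping reads. The annotation at hand is GENCODE M21 on GRCm38, so no coordinates are printed, and it supplied symbols for 51880 of 57132 genes, biotypes, exonic lengths (338 to 404 bases for the 83 members) and transcript sequences.

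Counts were filtered with filterByExpr (19152 genes kept), scaled by TMM and fitted with robust edgeR 4.0.16 quasi-likelihood models (limma 3.58.1, R 4.3.3) with 8 group means and 8 residual degrees of freedom. P-values were Benjamini-Hochberg adjusted over all 19152 genes and called under 0.05 in 13 comparisons; SE is the absolute log2 fold change over the square root of F. CPM uses TMM-scaled library sizes. Shares divide reads by exonic length. Intervals are exact binomial at 95%. Alternatives were RLE scaling, no filter, DESeq2 1.42.0, a replicate block, fits of the compared groups alone, and leaving out each library. Scripts were tested on simulated data. The labels' replicate numbers were not treated as pairs.

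Named were all lambda members, the 10 kappa members of highest mean share, each library's largest segment, called members (or the 1 of smallest p), the 10 highest single-library excursions and the constant regions. Igkv8-27 and Igkv6-23, among the 10, illustrate uncalled members. Gene lists covered light chain constant regions, pre-B and joining genes, light chain transcription factors, B lineage, plasma cells, T cells, neutrophils and erythroid cells. The members and lists were chosen with earlier results of these data known.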

Additional observations from a re-analysis of the deposited data

Results flagged for a closer look

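Among the named members and constant regions, 5 pairs of member and treatment and 1 constant region had both treated libraries beyond both of their controls in one direction in WT and in the opposite direction in KO. Over all 83 members there were 3, 6 and 8 such cases for 5-FU against PBS, BMX-001 against PBS and BMX-001+5-FU against 5-FU, and 5.29%, 5.01% and 10.1% of all genes tested met the same rule, so the members' counts lie near the background. The difference was not tested in each pair by itself; the test of a genotype effect that varies with treatment called none of these genes (edgeR adjusted p = 0.601 for Iglv1, Igkv19-93 and Igkv5-39 and 0.716 for Igkv14-126).

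Iglv1 under BMX-001+5-FU was at 0.397 times its mean under 5-FU in KO and at 1.17 times in WT, and its constant region Iglc1 at 0.401 and 1.30 times. Igkv19-93 under 5-FU was at 4.72 times its PBS mean in KO and 0.11 times in WT, and under BMX-001+5-FU at 0.0816 times its 5-FU mean in KO and 1.26 times in WT; both KO ratios include KO 5-FU replicate 1, at 152 CPM against 32.5 CPM in its partner. Igkv14-126 under 5-FU was at 2.00 times its PBS mean in KO and 0.66 times in WT. Igkv5-39 under BMX-001 was at 0.0782 times its PBS mean in KO and 2.00 times in WT, and the KO ratio includes KO PBS replicate 2, at 109.7 CPM against 15.6 CPM in its partner. That ratio also includes KO BMX-001 replicate 1, which stands apart over all genes, at 1.91 CPM against 7.89 CPM in its partner. With 2 libraries in a group, no single library could be tested as an outlier.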

How the results depend on the processing

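The 12 log2 fold changes of 7 members that were recomputed under the alternatives kept their sign in each, no other named member had its fold change recomputed, and RLE scaling changed no count of calls by more than 1.5 times. No filter on low counts raised the members called to 80 for any difference among the 8 groups, 56 for KO against WT averaged over treatments, 43 for KO against WT in PBS, 33 for KO against WT in BMX-001, 49 for KO against WT in 5-FU, 33 for KO against WT in BMX-001+5-FU, 26 for 5-FU against PBS in WT, 45 for 5-FU against PBS in KO, 25 for BMX-001 against PBS in WT, 51 for BMX-001 against PBS in KO, 11 for BMX-001+5-FU against 5-FU in WT, 36 for BMX-001+5-FU against 5-FU in KO, 65 for a genotype difference that varies with treatment; the cause was not tested. Over all genes the calls for any difference went from 131 of 19152 to 4396 of 34165 genes without the filter and 2166 of 19152 with DESeq2. The other member counts in this paragraph are given without the share over all genes. A change in them is therefore not read as a result about the members. DESeq2 called 38 for any difference among the 8 groups, 19 for KO against WT averaged over treatments, 10 for KO against WT in PBS, 2 for KO against WT in BMX-001, 11 for KO against WT in 5-FU, 5 for 5-FU against PBS in WT, 5 for 5-FU against PBS in KO, 14 for BMX-001 against PBS in KO, 4 for BMX-001+5-FU against 5-FU in KO, 5 for a genotype difference that varies with treatment. Fits of the 2 groups alone called 2 for KO against WT in PBS, 5 for KO against WT in 5-FU, 4 for KO against WT in BMX-001+5-FU, 4 for 5-FU against PBS in KO. With the replicate number as a block, counts became 2 for any difference among the 8 groups and 0 for KO against WT in PBS. No other count moved by over 1.5 times. Deviations of same-numbered libraries correlated at -0.39 to 0.20 over 28 pairs of groups, with 6 above 0.1. With 2 libraries a group, such correlations cannot decide whether the number marks a pairing, and the labels do not say. Chosen after seeing the data, leaving out WT PBS replicate 1 and KO 5-FU replicate 1 gave 0 for KO against WT in PBS, 0 for 5-FU against PBS in KO, and leaving out KO BMX-001 replicate 1 as well gave 16 for any difference among the 8 groups, 9 for KO against WT averaged over treatments, 5 for KO against WT in PBS, 1 for KO against WT in BMX-001, 3 for KO against WT in 5-FU, 3 for KO against WT in BMX-001+5-FU, 1 for 5-FU against PBS in WT, 7 for 5-FU against PBS in KO, 2 for BMX-001 against PBS in KO, 2 for a genotype difference that varies with treatment. The members' median for KO against WT in BMX-001 changed sign without KO BMX-001 replicate 1, from -0.20 to 0.0354. Leaving out 1 library at a time, members called ranged from 1 to 21 for any difference among the 8 groups, 0 to 8 for KO against WT averaged over treatments, 0 to 2 for KO against WT in PBS, 0 to 4 for KO against WT in BMX-001, 0 to 3 for KO against WT in 5-FU, 0 to 1 for 5-FU against PBS in WT, 0 to 2 for 5-FU against PBS in KO, 0 to 1 for BMX-001 against PBS in WT, 0 to 11 for BMX-001 against PBS in KO, 0 to 9 for a genotype difference that varies with treatment, and stayed at 0 for KO against WT in BMX-001+5-FU, BMX-001+5-FU against 5-FU in WT, BMX-001+5-FU against 5-FU in KO; the highest counts of 21, 8, 4, 11 and 9 came without KO BMX-001 replicate 2, where the lone library of that group is assumed to vary like the others. The lambda share averaged 13.7% over the 16 libraries and 13.2% to 14.1% with 1 left out, the largest share 12.0% and 11.5% to 12.4%, and the effective number of segments 26.0 and 25.4 to 26.7, or 21.6 with a minimum of 1600 reads a member. Averaged over libraries, the pool was 0.56 to 0.97 log2 units higher in KO with 1 library left out. This average was not tested, and the PBS and BMX-001 groups overlapped between genotypes. With 2 libraries a group, differences within the spread between partners were not detectable here.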
